A study of Homo sapiens with 9 samples.

Results

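The 10 genes described here are factors of AU-rich element binding and mRNA decay, followed by SLAM-Seq in MCF10A cells. They were taken by symbol and not by a cut on measured values, as ZFP36, ZFP36L1, ZFP36L2, ELAVL1, HNRNPD, KHSRP, TIA1, TIAL1, CNOT1 and XRN1. The choice was made with earlier results of these data known. All 10 had reads in every library, out of 26869 genes in the table. MCF10A is a non-transformed human mammary epithelial line, here with JUN knocked out and given back as a JUN-AID fusion together with the plant receptor TIR1, so that indole-3-acetic acid (IAA, an auxin) removes the JUN protein. All groups carried these alleles. The first group had no 4-thiouridine (no 4sU, 3 libraries), and the labels do not say whether its cells received the solvent. The second received DMSO and then 100 µM 4sU for 1 h (DMSO 4sU, 3 libraries). The third received 100 µM IAA for 1 h before 100 µM 4sU for 1 h (IAA 4sU); its 3 columns held identical values and were counted as 1 library. 4sU enters RNA made during the pulse and is read as C in place of T after alkylation, so the T>C conversion rate, given here in percent of T positions, rises with the share of an mRNA made within that hour. Total mRNA was read from the same 3′-end libraries as CPM, the reads of an interval scaled to the library's size.

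AU-rich elements are stretches rich in A and U in the 3′ untranslated region (UTR) of many short-lived mRNAs, such as those of cytokines and early response genes. ZFP36 and its relatives ZFP36L1 and ZFP36L2 bind them through zinc fingers and bring in the CCR4-NOT complex, which shortens the poly(A) tail, after which decapping and the exonuclease XRN1 degrade the mRNA. HNRNPD (AUF1) and KHSRP bind the same elements and are known mostly for promoting decay, ELAVL1 (HuR) for stabilising its targets, and TIA1 and TIAL1 (TIAR) for holding back translation. The mRNAs of several of these proteins carry such elements themselves.

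An annotated 3′ UTR (GENCODE v44 on GRCh37) was matched by length for 8 of the 10 genes. The match was exact for 5 of them and within 10 bases for ZFP36L1 and TIAL1. For CNOT1 the measured interval of 1091 bases was not matched, and the UTR shown is that of its second interval of 1015 bases, matched within 10 bases. HNRNPD and KHSRP were not matched. The UTRs were searched on the sense strand for the pentamer ATTTA and for the nonamer TTATTTATT, which contains the pentamer. ZFP36, ZFP36L1, ZFP36L2 and ELAVL1 each held 1 nonamer, and TIA1, TIAL1, CNOT1 and XRN1 held 0. The 4 sites are shown with 10 bases on either side because the UTRs that hold them belong both to the 3 most strongly labelled genes and to the least labelled one. Capitals mark the nonamer, T stands for U in the mRNA.
ZFP36: tatgacgactTTATTTATTctaatatgat
ZFP36L1: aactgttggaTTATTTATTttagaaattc
ZFP36L2: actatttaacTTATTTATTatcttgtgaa
ELAVL1: atttatgtatTTATTTATTgaagtgtgaa
The ZFP36 window lies at chr19:39899836-39899864 on the plus strand, within the single 3′ UTR segment that was measured. Those of ZFP36L1 (chr14:69254794-69254822), ZFP36L2 (chr2:43450587-43450615) and ELAVL1 (chr19:8026712-8026740) lie in the 3′ UTR on the minus strand. The nonamer was present in 8.05% of 2287 genes whose measured interval matched a UTR exactly and whose rate was tested, and the pentamer in 75.7%. Per 1000 bases, ZFP36 held the most pentamers of the 8 genes, 6.98 (5 in 716 bases), followed by ZFP36L1 with 4.27 and TIA1 with 3.97. The UTR of the second CNOT1 interval held the fewest, 0.990 (1 site), and the median of the 2287 genes was 1.96. A match to these letters is a description and does not show that a protein binds there.

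The 10 genes fell into a pair of clearly separated ranges of labelling. The ZFP36 family had the highest conversion rates with DMSO and 4sU, in the order ZFP36, ZFP36L1 and ZFP36L2, and this order was the same in each of the 4 labelled libraries. The other 7 genes lay between 0.0808% and 0.258% on average, around the library medians of 0.178% to 0.236% over 7001 genes with DMSO and 4sU. Library medians without 4sU were 0.0574% to 0.0600%.

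ZFP36 had conversion rates of 9.43%, 8.69% and 10.0% in the DMSO 4sU libraries and 8.28% in the IAA library, against 0.108%, 0.0724% and 0.0836% without 4sU. The labelled and unlabelled libraries did not overlap, and the rate was 37.8 to 56.1 times the median gene of the same library. Only 6 of 9906 genes with at least 50 reads on average had a higher mean rate with DMSO and 4sU. Its mRNA was scarce, with 113 to 338 reads per library and an average of 199 over the 6 libraries without IAA. It thereby missed the minimum of 200 reads and was not among the genes tested for the rate. With a minimum of 50 reads it rose by 6.10 ± 0.23 (SE, log2, n = 3 against 3; limma, Benjamini-Hochberg adjusted p = 0.00016).

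ZFP36L1 had rates of 3.65%, 2.66% and 2.68% with DMSO and 4sU and 3.25% with IAA and 4sU, against 0.0565%, 0.0614% and 0.0755% without 4sU. Its rate rose by 4.72 ± 0.22 (SE, log2; limma, adjusted p = 6.6e-06). ZFP36L2 had 2.77%, 1.95% and 1.67%, then 2.63% with IAA, against 0.0448%, 0.0792% and 0.0585%, a rise of 4.28 ± 0.27 (adjusted p = 3.2e-05). The DMSO ranges of these paralogs overlapped between libraries, although ZFP36L1 was above ZFP36L2 within each one. Relative to the median gene of its library, ZFP36L1 stood at 14.6 to 15.5 times and ZFP36L2 at 9.35 to 12.0 times. Among the 7001 genes, ZFP36L1 ranked at percentiles 99.2 to 99.5 and ZFP36L2 at 98.7 to 99.2.

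The 7 remaining genes gave much smaller rates. Of the other element-binding proteins, ELAVL1 was lowest, at 0.0993%, 0.0823% and 0.0609% with DMSO and 4sU against 0.0416%, 0.0600% and 0.0176% without. These groups did not overlap, but the highest unlabelled and the lowest labelled library nearly met, and the difference of 0.56 ± 0.29 did not pass the test (adjusted p = 0.11). ELAVL1 ranked at percentiles 5.68 to 20.2 of the labelled libraries, whereas its UTR holds the same nonamer as those of the ZFP36 family. HNRNPD averaged 0.121% ± 0.0296 with label (SD, n = 3) and rose by 0.69 ± 0.23 (adjusted p = 0.033). KHSRP averaged 0.193% ± 0.0545 and rose by 1.10 ± 0.26 (adjusted p = 0.0072). TIA1, at 0.143% ± 0.0745, rose by 1.05 ± 0.35 (adjusted p = 0.029), and its paralog TIAL1, at 0.258% ± 0.0326, by 1.44 ± 0.32 (adjusted p = 0.0062). The calls for HNRNPD and TIA1 were lost when any replicate number was left out, with adjusted p of 0.075 to 0.12 and 0.053 to 0.14. With rates averaged over both intervals of HNRNPD its log2 difference was 0.0026 (adjusted p = 0.996).

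Of the decay machinery, CNOT1, the scaffold of the CCR4-NOT complex, averaged 0.190% ± 0.0362 and rose by 1.15 ± 0.24 (adjusted p = 0.0048). XRN1, the cytoplasmic 5′ to 3′ exonuclease, had rates of 0.284%, 0.100% and 0.124% with DMSO and 4sU and of 0.122%, 0.139% and 0.0605% without, so that the groups overlapped. Its difference of 0.43 ± 0.38 did not pass the test (adjusted p = 0.32), with 210 to 321 reads per library. In all, 7 of the 9 genes tested had a higher rate with 4sU, where 66.2% of all 7001 genes did. With a minimum of 50 reads it was 6 of 10, beside 53.2% of 9906, since ZFP36 joined while HNRNPD (adjusted p = 0.055) and TIA1 (adjusted p = 0.053) missed the threshold. The count of labelled genes was therefore close to that of the whole table, whereas the ZFP36 family differed from the other members in the size of the rate. Among the 7, TIAL1 had the highest mean rate, but the ranges of all neighbours in the order overlapped, save that of ELAVL1 (at most 0.0993%) and HNRNPD above it (at least 0.104%).

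**Figure D1:**
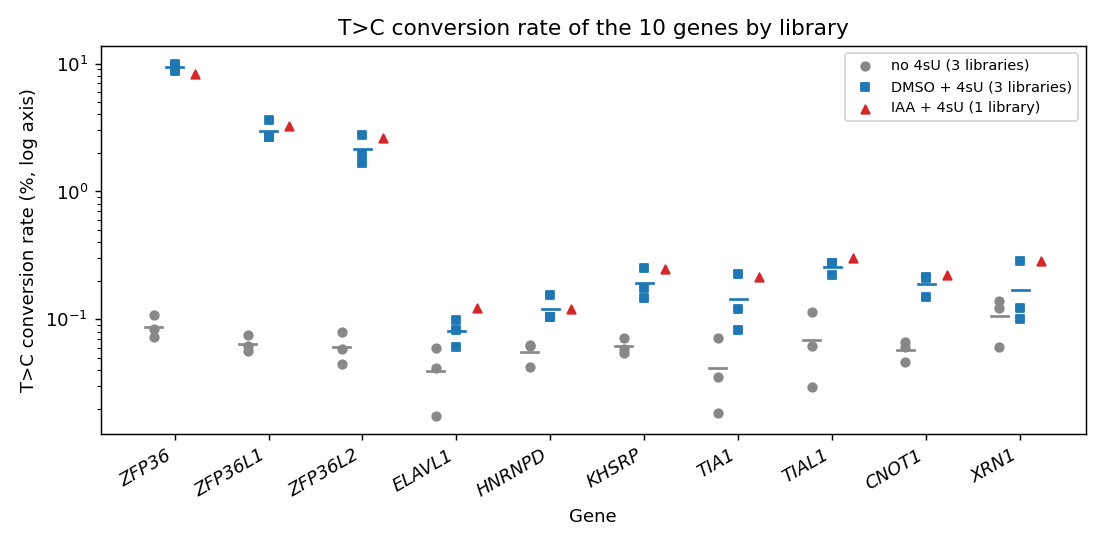
T>C conversion rate in percent (log axis) of the 10 genes, 1 point per library, with short lines at the group means of the 3 no 4sU and the 3 DMSO 4sU libraries. ZFP36, ZFP36L1 and ZFP36L2 lie between 1.67% and 10.0% in the labelled libraries, and the others at 0.301% or below.

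Total mRNA of ZFP36L1 and ZFP36L2 fell with 4sU, and that of ZFP36 lay lower without passing the test. ZFP36L1, the most abundant of the 10 without 4sU, had 392, 440 and 419 CPM without 4sU and 195, 160 and 163 CPM with DMSO and 4sU. The groups stood far apart, with a mean 2.42 times as high without 4sU, and the fall of 1.31 ± 0.16 on the log2 scale passed the test (SE; limma on log2(CPM + 1), adjusted p = 0.0041). ZFP36L2 had 106, 90.4 and 103 CPM without 4sU and 58.4, 57.9 and 57.7 CPM with it. It fell by 0.81 ± 0.14 (adjusted p = 0.023), with a narrow spread among the labelled libraries. ZFP36 had 15.0, 15.1 and 9.16 CPM without 4sU and 7.09, 4.71 and 5.78 CPM with it. These did not overlap either, but its difference of -1.06 just missed the threshold (adjusted p = 0.053). It passed with edgeR's quasi-likelihood test on the recovered reads (adjusted p = 0.047) and with DESeq2 (adjusted p = 0.00075). In limma it did not pass with the deposited library sizes (adjusted p = 0.084), without replicate 2 (difference -0.81, adjusted p = 0.45) or without replicate 3 (adjusted p = 0.21), and it passed without replicate 1 (adjusted p = 0.013).

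None of the other 7 members passed the test in total mRNA. The binding proteins HNRNPD (111 ± 8.87 CPM without and 137 ± 1.56 with 4sU, SD, n = 3), KHSRP (154 ± 7.86 and 198 ± 38.8) and ELAVL1 (46.1 ± 6.57 and 53.3 ± 5.06) had log2 differences of 0.27, 0.31 and 0.17, with adjusted p of 0.60, 0.64 and 0.81. The libraries of HNRNPD did not overlap between the groups, whereas those of KHSRP and ELAVL1 did. TIA1, TIAL1, CNOT1 and XRN1 had differences between -0.15 and 0.01 (adjusted p of 0.82 to 0.995). A p above the threshold does not show that these levels were equal.

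Thus 2 of the 10 genes fell and 0 rose, whereas over all genes 1.66% of 11433 fell and 0 rose by limma (edgeR 0, DESeq2 3; 307 rose and 861 fell at an unadjusted p under 0.05), around a median change of 0.04. The fall was shared with other strongly labelled genes. Of 83 other genes with a rate at least that of ZFP36L2, a comparison chosen after the values were seen, 59% fell, with a median change of -1.20, and 36 fell at least as far as ZFP36L1. Both calls were lost without replicate 2 or replicate 3, but not without replicate 1. Without replicate 2 the adjusted p was 0.13 for ZFP36L1 and 0.28 for ZFP36L2, and without replicate 3 it was 0.18 and 0.71, while the log2 differences stayed at -1.21 to -1.24 and -0.75 to -0.86. In the IAA 4sU library, ZFP36L1 was at 195 CPM and ZFP36L2 at 66.6 CPM, below every library without 4sU. ZFP36, at 10.8 CPM, was inside the range without 4sU. The labels name DMSO only for the DMSO 4sU libraries and do not give the solvent of the unlabelled or of the IAA cells. Whether the fall goes with the label or with the solvent therefore cannot be told apart.

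**Figure D2:**
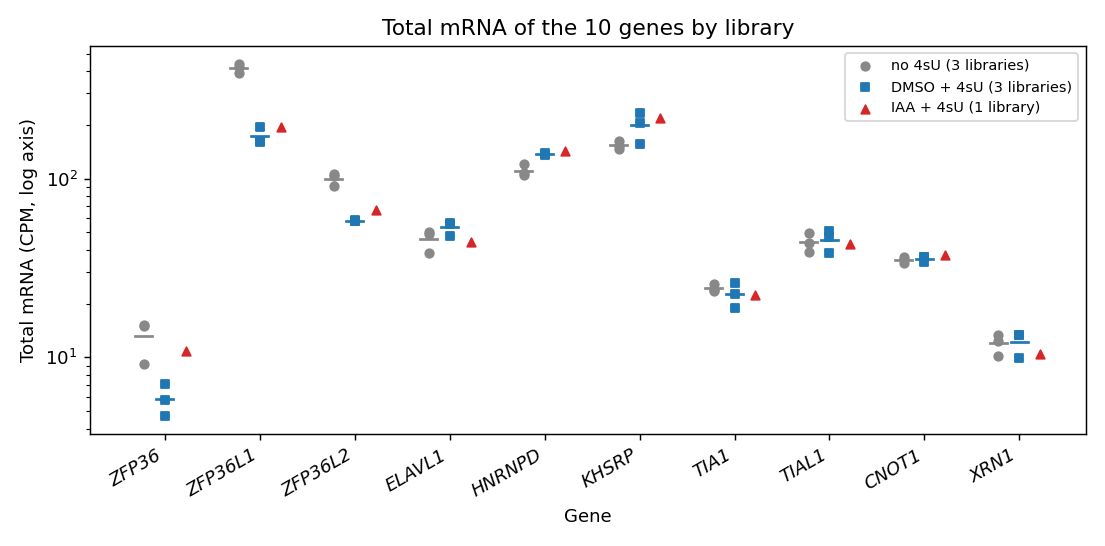
Total mRNA in CPM (log axis) of the 10 genes, 1 point per library, with short lines at the group means. The DMSO 4sU libraries lie below the no 4sU libraries without overlap for ZFP36, ZFP36L1 and ZFP36L2.

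**Figure D3:**
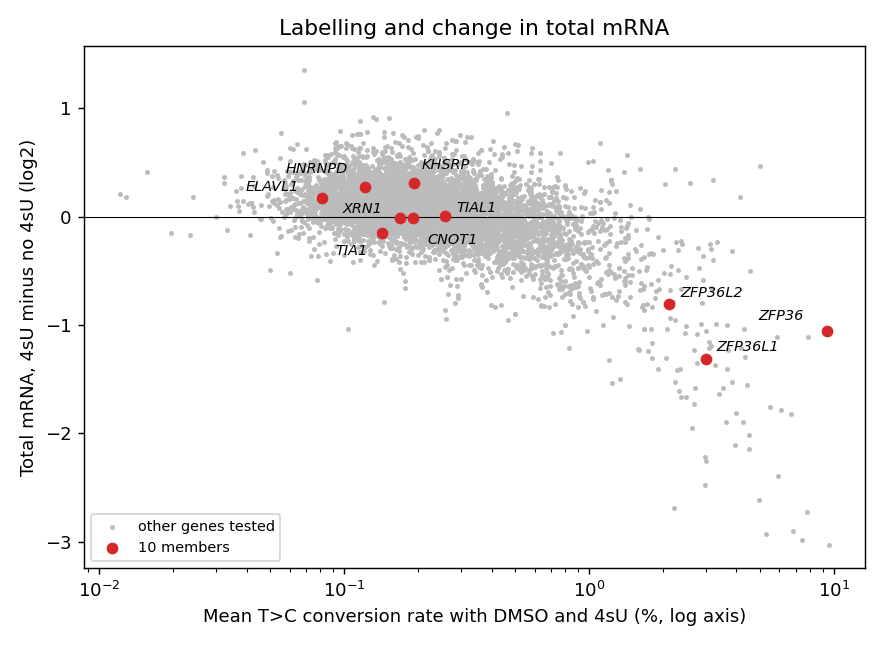
Mean conversion rate with DMSO and 4sU (percent, log axis) against the log2 change in total mRNA with 4sU, with the 10 members in red and other genes tested in both measures in grey. ZFP36 is shown although it missed the minimum of reads for the rate test. The 3 family members lie at the lower right among other genes with high rates, and the other 7 lie near 0.

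IAA and DMSO were compared to ask whether loss of JUN altered these mRNAs within the treatment. With 1 IAA library there was no test. A gene was counted as apart when its IAA value was outside the DMSO range and differed from the DMSO mean by 1 log2 unit or more. By this rule 0 of 9 genes were apart in the conversion rate, beside 8.94% of 7001 genes, and 0 of 10 in total mRNA, beside 0.131% of 11433. When each DMSO library was set against the other labelled ones in the same way, 578 to 743 genes were apart in rate, so the 626 of the IAA library lay within what a single DMSO library gave. In total mRNA a single DMSO library gave 6 to 122 genes, and the IAA library 15.

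The member that stood furthest from DMSO in total mRNA was ZFP36, at 10.8 CPM with IAA and 4sU, above all DMSO libraries (4.71 to 7.09 CPM) and inside the range without 4sU (9.16 to 15.1 CPM). The log2 difference from DMSO was 0.73, and 0.60 to 0.85 when 1 DMSO library was left out. The conversion rate of ZFP36 was lower than in every DMSO library, by 0.30 on the log2 scale after centring each library on its median. For comparison, the mRNA of JUN was at 62.9 CPM with IAA and 25.4 ± 4.95 CPM with DMSO and 4sU (SD, n = 3). Without 4sU it was at 50.2 ± 6.60 CPM. These reads were not assigned to the knocked-out gene or to the JUN-AID fusion, and they do not report on the level of the JUN protein. ZFP36L1 and ZFP36L2 differed by 0.10 and 0.11 in total mRNA, and by 0.01 and 0.21 in rate. ELAVL1 lay below its DMSO libraries in total mRNA (-0.34) and above them in rate (0.28). XRN1 had the largest difference in rate, 0.59, from 210 reads in the IAA library, while its own DMSO libraries differed from the other labelled ones by -0.68 to 0.46.

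**Figure D4:**
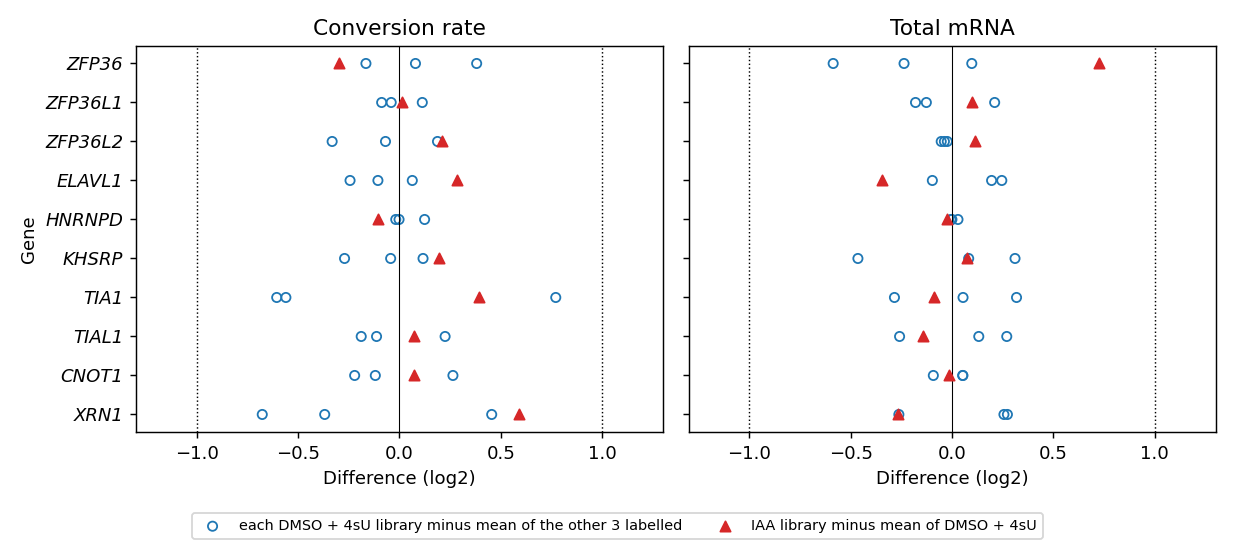
Log2 differences of the conversion rate (left, centred on library medians) and of total mRNA (right) for each gene: the IAA 4sU library minus the DMSO 4sU mean (triangles), and each DMSO 4sU library minus the mean of the other 3 labelled libraries (circles). Dotted lines mark 1 log2 unit, and every triangle lies within them.

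The other genes of the pathway were read from lists, beside a background of 66.2% of all genes with a higher rate and 1.66% that fell in total mRNA. Of 19 further RNA-binding proteins, not all of them binders of AU-rich elements, 12 of 15 tested had a higher rate and 1 of 17 fell in total mRNA. That gene was ZC3H12A (Regnase-1), an endonuclease of inflammatory mRNAs, which fell by 1.05 ± 0.21 from 71.8 ± 9.03 to 35.7 ± 9.91 CPM (SD, n = 3; adjusted p = 0.044) and had a rate of 3.01% with DMSO and 4sU, like ZFP36L1. YBX1 was lowest, at 0.0730%. Of 17 deadenylation genes found, 12 of 14 tested had a higher rate and 0 of 16 passed in total mRNA. BTG2, which recruits the deadenylase, had the highest rate, 3.71% ± 0.693, and a total difference of -1.23 that did not pass (adjusted p = 0.083). CNOT10 had the lowest, 0.0926%.

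In the decapping and 5′ decay list 11 of 13 genes had a higher rate, with DCP1A at 0.637% the highest and LSM3 at 0.127% the lowest. The cytoplasmic exosome had 10 of 14, with EXOSC4 at 0.740% the highest and EXOSC5 at 0.0533% ± 0.0924 (SD, n = 3) the lowest. EXOSC5 was at 0.0570% ± 0.0528 without 4sU, and its rate did not pass the test (limma, adjusted p = 0.73). Of the kinase pathway that acts on ZFP36, 7 of 9 genes had a higher rate, from YWHAB at 0.113% to PPP2CA at 0.372%. None of the genes in these 3 lists passed the test in total mRNA (0 of 18, 16 and 9), and their median rates of 0.162% to 0.188% were below the 0.206% of all genes. The deadenylation median was 0.337% and that of the other binding proteins 0.181%.

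Among 32 mRNAs with known AU-rich elements, 25 of 25 tested had a higher rate (66.2% of all genes), with a median of 2.24%. In total mRNA 12 of 30 fell (1.66% of all genes), with a median change of -0.65 beside 0.04 for all genes. In the 1 IAA library, 2 of 30 counted as apart from DMSO in total mRNA (0.131% of all genes). In the rate 1 of 25 did (8.94% of all genes). DUSP1, a phosphatase that inactivates MAP kinases, fell from 179 ± 45.9 to 21.5 ± 4.49 CPM (adjusted p = 0.00026) and had the highest rate, 9.57%, close to that of ZFP36. CXCL2, a chemokine, fell from 69.0 ± 11.2 to 8.03 ± 0.465 CPM (adjusted p = 0.00016), and DUSP6, a phosphatase of ERK, from 124 ± 23.0 to 25.7 ± 2.48 CPM (adjusted p = 0.00061). PTGS2 (COX-2) had the lowest rate of the list, 0.218%. The mean rates of ZFP36L1 (2.99%) and ZFP36L2 (2.13%) thus lay near the median of this list, whose members were chosen with earlier results of these data known.

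Over all 2287 genes with a matched UTR, the median rate was 0.267% with and 0.205% without the nonamer, but UTRs with it were longer (median 2713 against 1245 bases). Among UTRs of 500 to 1000 bases, the class of ZFP36 by length, the order was the other way, 0.172% with the nonamer (14 genes) and 0.192% without (379 genes). ZFP36 itself missed the minimum of reads and was not among these genes. Among UTRs of 1000 to 2000 bases, the class of ZFP36L1 and ZFP36L2 by length, the medians were 0.285% and 0.211%. ZFP36L1, whose interval was not matched exactly, was not counted there. Among those over 4000 bases, the class of ELAVL1, they were 0.243% and 0.235%. In the remaining classes the median was also higher with the nonamer. It was 0.251% (6 genes) against 0.178% under 500 bases, and 0.271% (63 genes) against 0.228% from 2000 to 4000 bases. In promoters (RefSeq, GRCh38.p14), the AP-1 motif TGANTCA, searched on both strands, was in 0 of 9 windows of the 7 members with an entry, and in 7.71% of 35116 windows. No match says only that these letters are not within the window.

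Over the 7 libraries, the total mRNA most like that of ZFP36L1 among 6875 genes was that of EPC1 (Pearson r = 0.997), DUSP6 (0.995) and CHD2 (0.994). For ZFP36L2 it was EXPH5 (0.987), TAF5L (0.986) and EIF1AD (0.977), and for ZFP36 it was RBM33 (0.961), RMP24 (0.952) and TRIM4 (0.951). ZFP36L1 and ZFP36L2 had r = 0.960 with each other, and ZFP36 had 0.813 and 0.788 with them. These values are descriptions, because the 7 libraries share the split between labelled and unlabelled cells.

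The libraries held 18997637 to 24014195 reads, and the members 113 to 9853 reads each. The summed level of 11 mammary epithelial markers was 2609 to 3435 CPM without 4sU, 3449 to 3923 with DMSO and 4sU and 3426 with IAA. The no 4sU and DMSO 4sU libraries did not overlap, 0 of the 10 markers tested passed in total mRNA, and the part of this difference in the results was not tested. Of 11 markers of leukocytes, endothelium, fibroblasts, liver and hormone receptor positive cells, 8 were under 1 CPM in every library, PTPRC, CD3E and VWF were at 0, and the sum was 5.74 to 12.7 CPM without 4sU, 7.07 to 13.3 with DMSO and 4sU and 18.4 with IAA. In these bulk samples fewer cells with an mRNA and less of it per cell cannot be told apart. The study describes its SLAM-Seq replicates as biological, and p-values measure the spread between them.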

How the data were processed

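SLAM-Seq 3′-end libraries were processed by the authors with a Nextflow SLAM-Seq pipeline; the submitters' processing notes name hg19. The deposited T>C conversion rate is a fraction of T positions per 3′ interval, printed here in percent. The deposited CPM column is a signal scaled to library size. It was whole multiples of 1 read in 100% of values (tolerance 0.1 reads), which gave the reads. The deposited interval length, another column, chose UTRs. Depth was 18997637 to 24014195 reads per library, and the bases behind a rate are unknown.

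RefSeq identifiers were matched to symbols for 97.7% of 56868 rows. Rows of equal length and values counted once. Of several intervals per gene (19.7% of genes), that with most reads was used, because overlapping intervals repeat reads; the mean of rates or sum of reads, first planned as the main value, became the alternative after the table was seen. Rates above 0 in at least 3 of 6 libraries with at least 200 reads on average were compared by limma (3.58.1, R 4.3.3, trend, robust) on log2(rate + 0.0005). Total mRNA with at least 1 CPM in 3 libraries was compared by limma on log2(CPM + 1) with TMM sizes. Alternatives were edgeR (4.0.16) and DESeq2 (1.42.0) on recovered reads, other pseudocounts, filters and scalings, and leaving out replicates; calls used a Benjamini-Hochberg adjusted p of 0.05. The fits were tested on simulated data. The planned tests of IAA were not run, since its 3 columns are 1 library.

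Replicate numbers paired the libraries in total mRNA (correlations of deviations 0.40, 0.33 and 0.50 over 7001 genes), a hint from the data and not from the labels.

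Members and lists were chosen with earlier results of these data known. Named genes were all members, from each list those past the threshold in total mRNA (at most 3) and those of highest and lowest rate, the 3 genes most like each ZFP36 family member, and JUN. CNOT6 was not matched.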

Additional observations from a re-analysis of the deposited data

How the results depend on the processing

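The order of the 3 ZFP36 family rates was the same under each alternative run. The number of labelled members was 5 to 7 throughout. In total mRNA, 0 to 3 members changed when a replicate number was left out, and 27 (without replicate 2) to 479 (without replicate 1) of all genes fell, with 36 without replicate 3; DESeq2 gave 400. Differences near 0 turned sign: TIAL1 gave -0.0035 with DESeq2, -0.0010 with its size factors and -0.0383 to 0.0162 without 1 replicate; CNOT1 gave 0.0213 without TMM and -0.108 to 0.0160 without 1 replicate; XRN1 gave 0.0205 without TMM and -0.172 to 0.118 without 1 replicate. With the replicate block, 2 members and 223 of all genes fell, and in the rate, where the numbers do not pair the libraries (correlations -0.014, -0.012 and 0.00046, with 0 of 3 best with their own number), 6 members and 4415 genes were labelled, HNRNPD missing the threshold (adjusted p = 0.052). No paired analysis was possible for IAA because it is 1 library. With rates averaged over intervals, the HNRNPD rise with 4sU was lost (0.0026, adjusted p = 0.996), and 2 members (HNRNPD and XRN1) counted as apart with IAA, by 1.65 and 2.81. Both did so through a second interval, which for HNRNPD was only 33 bases long, with 111 reads in the IAA library. The second interval of XRN1 had 7 reads there. With no minimum of reads 2004 genes were apart in rate. In total mRNA 25 were apart without TMM, 39 with a pseudocount of 0.5, and 11 to 102 without 1 DMSO library, the highest without replicate 1. Low depth limits ZFP36 and XRN1 most, at 113 to 338 and 210 to 321 reads.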
